A study of Mus musculus with 4 samples.

Results

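The genes of the NF-κB subunits and their inhibitors were compared between effector CD4 cells of the spinal cord (CNS) and of the draining lymph nodes (dLN) in experimental autoimmune encephalomyelitis (EAE), a mouse model of multiple sclerosis. The members and the gene lists used below were chosen with earlier results of these data known. The members were taken by gene symbol, and all 10 were among the 23990 symbols of the deposited tables. They comprise the 5 subunit genes Rela, Rel, Relb, Nfkb1 and Nfkb2 and the 5 inhibitor genes Nfkbia, Nfkbib, Nfkbie, Nfkbid and Nfkbiz. All cells came from wild type C57BL/6 mice (C57BL/6J in the methods) that had received a myelin peptide in complete Freund's adjuvant and pertussis toxin, so no group is free of the disease. CD44+CD4 cells were sorted at disease onset, those of the dLN from pooled nodes, and each tissue gave 2 libraries. The labels give neither the age of the mice nor whether the 2 libraries of a tissue came from separate animals, so the tests measure only the spread between these libraries. The methods of the study describe stimulation of the sorted cells with PMA and ionomycin, while the labels describe fresh sorting and name no stimulation. PMA and ionomycin themselves activate NF-κB, so it matters to these genes that the sources differ here. If the tissues differed in stimulation, this could not be told apart from tissue.

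NF-κB is a family of dimeric transcription factors. In resting T cells the dimers are held in the cytoplasm by IκB proteins. Signals from the T-cell receptor, CD28 and cytokine receptors activate the IκB kinase (IKK), IκB is degraded, and the dimers enter the nucleus. RelA, c-Rel and RelB carry the activation domains, whereas p50 and p52, cut from the precursors p105 and p100, lack them. Many genes of the family are themselves NF-κB targets, above all Nfkbia, whose renewed synthesis ends the response. A slower, alternative branch runs through NF-κB-inducing kinase and the processing of p100, and leads to RelB and p52 dimers. In T cells the pathway is known for cytokine production, survival and proliferation.

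The values are FPKM, fragment counts scaled to the length of the transcript and the mapped fragments of the library, summed over the transcripts of a gene. From the steps of low values, depth was estimated at 18540000 to 21940000 fragments per library, and the members rested on 524 to 57395 estimated fragments each. All 9 T-cell markers were read in every library, with a summed level of 1665 to 3377 FPKM. Cd4 was at 502 and 531 FPKM in CNS and at 82.0 and 66.7 FPKM in dLN. CNS replicate 2 stood apart in the level of 17 myeloid markers, which summed to 448 FPKM there, to 34.2 FPKM in CNS replicate 1 and to at most 4.84 FPKM in dLN. Of these markers 10 were listed at 0 in both dLN libraries, C1qa and Csf1r among them. Of 7 B-cell markers, Pax5 was at 0 in all 4 libraries, but the class II genes Cd74 (22.4 and 259 FPKM in CNS) and H2-Ab1 (7.47 and 126 FPKM in CNS) were high in CNS replicate 2. In dLN, Cd74 was at 58.4 and 54.1 FPKM, above CNS replicate 1, and H2-Ab1 at 0.376 and 0.584 FPKM. The 8 neural markers summed to 52.0 to 58.0 FPKM, most of it Mbp. The other 7 summed to 3.41 and 9.65 FPKM in CNS but 0.244 and 0.353 FPKM in dLN, with 5 of them wholly higher in CNS and 4 listed at 0 in both dLN libraries. The part of myeloid or neural RNA in the differences between the tissues was not tested. The 7 CD8 T-cell and NK-cell markers summed to at most 10.8 FPKM. Of Y-linked transcripts, 4 had FPKM above 0 in both CNS libraries and a listed value of 0 in dLN, so the sex of the mice and the tissue cannot be told apart.

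Promoters of the family were read from RefSeq (build GRCm38.p6, the sequence of the mm10 build used in the tables) to show how many carry a κB site by sequence, as several members are known targets of NF-κB. The table of promoters held 11 windows for 7 of the members, each from 250 bases before to 50 bases after a start site, and none for Relb, Nfkb1 and Nfkbiz. The κB consensus was searched on both strands as GGGNNNNNCC with a purine at position 4 and pyrimidines at positions 7 and 8. Overlapping matches were counted once. A match was found in 5 of the 7 members (Rel, Nfkb2, Nfkbia, Nfkbie and Nfkbid) and in 9.6% of all 27025 genes with a window, although Nfkb2 and Nfkbid had 3 windows each. The windows of Rela and Nfkbib held none, nor did the window of Nfkbid nearest to its listed transcript. The 4 windows printed are those of members with a match close to a transcript start in the tables, 1 of them (Nfkbia) higher in CNS and 3 lower. They are written 5′ to 3′ on the strand of the gene, with the matches in capitals. Of the 3 windows of Nfkb2 only 1 is printed. Its window for the start at 46305695 held matches starting 236 bases before and 10 bases after that start. Its window for the start at 46305930 held 1 match, starting 225 bases before. A match is a stretch of sequence and not a measured binding site.
Nfkbia, chr12:55492598-55492897, minus strand, match starting 29 bases before the start site: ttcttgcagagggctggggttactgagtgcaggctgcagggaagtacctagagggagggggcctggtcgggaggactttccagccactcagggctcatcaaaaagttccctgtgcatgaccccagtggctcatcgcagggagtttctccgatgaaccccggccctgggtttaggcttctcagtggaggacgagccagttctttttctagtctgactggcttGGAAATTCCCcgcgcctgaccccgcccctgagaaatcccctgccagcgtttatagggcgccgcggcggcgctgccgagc
Nfkb2, chr19:46304487-46304786, plus strand, matches starting 39 and 11 bases before the start site: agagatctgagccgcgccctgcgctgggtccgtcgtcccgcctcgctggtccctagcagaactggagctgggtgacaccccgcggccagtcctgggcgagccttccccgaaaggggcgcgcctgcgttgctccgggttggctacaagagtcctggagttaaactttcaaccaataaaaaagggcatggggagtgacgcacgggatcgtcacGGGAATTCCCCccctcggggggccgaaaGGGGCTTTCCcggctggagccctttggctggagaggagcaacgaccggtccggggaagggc
Rel, chr11:23770920-23771219, minus strand, match starting 92 bases before the start site: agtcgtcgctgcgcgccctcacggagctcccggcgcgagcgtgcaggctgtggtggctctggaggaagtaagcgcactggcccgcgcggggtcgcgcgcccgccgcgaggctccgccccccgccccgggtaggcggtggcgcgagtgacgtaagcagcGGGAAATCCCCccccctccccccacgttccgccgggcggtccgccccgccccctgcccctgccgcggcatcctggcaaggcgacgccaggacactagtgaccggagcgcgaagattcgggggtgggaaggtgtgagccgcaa
Nfkbie, chr17:45555450-45555749, plus strand, match starting 106 bases before the start site: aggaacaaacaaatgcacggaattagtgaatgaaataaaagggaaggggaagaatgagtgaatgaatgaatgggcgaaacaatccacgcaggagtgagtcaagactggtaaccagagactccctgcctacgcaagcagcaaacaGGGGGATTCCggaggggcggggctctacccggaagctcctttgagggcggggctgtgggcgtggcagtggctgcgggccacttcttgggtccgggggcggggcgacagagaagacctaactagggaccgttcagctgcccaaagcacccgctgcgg

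All 5 subunit genes were lower in CNS than in dLN effector CD4 cells, by 2.16-fold for Relb to 8.69-fold for Nfkb1. Of the inhibitors, Nfkbib, Nfkbid and Nfkbie were lower, whereas Nfkbia and Nfkbiz were 2.14-fold and 2.21-fold higher. In limma on log2(FPKM + 1) with Benjamini-Hochberg adjustment over 10634 genes (mean FPKM in either tissue no lower than 1), all 10 members passed the filter and had an adjusted p under 0.05. Of all genes tested, 74.9% did so, 37.8% higher and 37.2% lower in CNS, so that most genes differed between these tissues and a call alone says little. Of the members, 7 were lower and 2 higher by 2-fold or more, where 18.2% and 21.0% of all genes were. The median log2 ratio (CNS over dLN) was -1.95 over the members and 0.05 over all genes tested. The 2 libraries of one tissue lay wholly above those of the other for 10 of 10 members and for 89.4% of all genes. In bulk RNA, fewer cells that express a gene and less RNA per cell cannot be told apart.

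**Figure D1:**
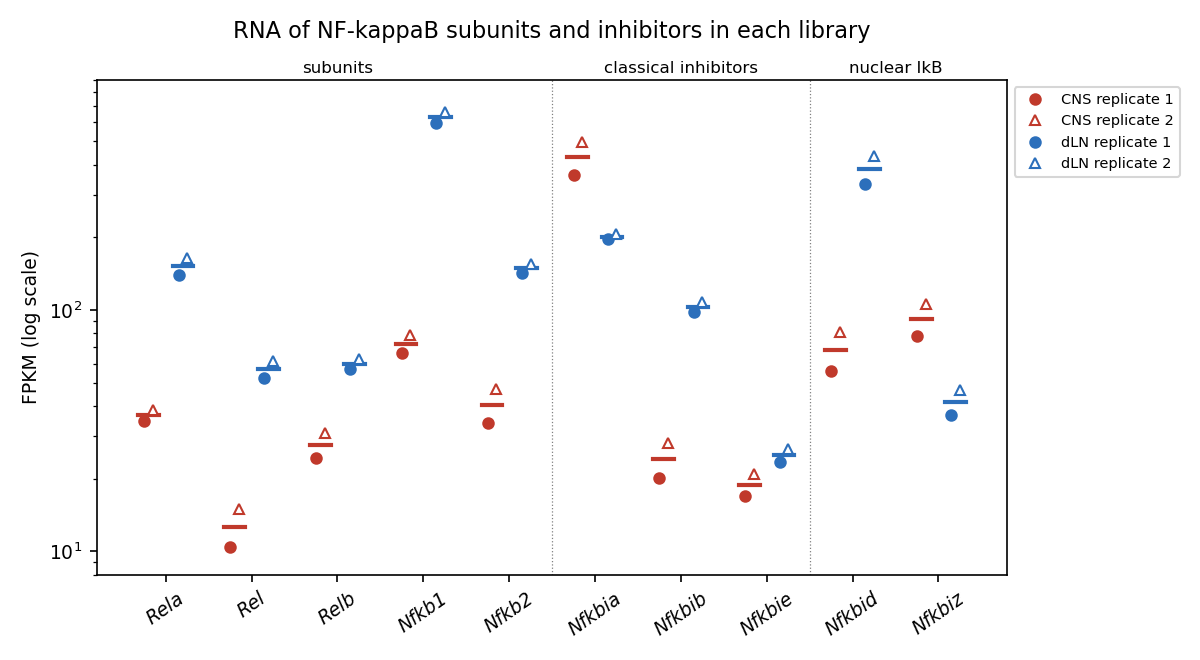
FPKM (log axis) of the 10 members in each library, with circles for replicate 1, triangles for replicate 2 and bars for the mean of a tissue. CNS libraries lie below dLN libraries for every gene except Nfkbia and Nfkbiz, and the gap is widest for Nfkb1 (72.6 against 631 FPKM).

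Nfkb1 (Entrez gene 18033, chromosome 3, 135584655 to 135691547, minus strand) encodes p105, the precursor of p50, and p105 also retains other subunits in the cytoplasm. Its level was 66.2 and 79.0 FPKM in CNS but 597 and 664 FPKM in dLN. In dLN it ranked 126 and 122 among 23990 symbols, and in CNS 1060 and 924. Both CNS libraries lay far below both dLN libraries, and the log2 ratio of -3.10 (SE 0.12, adjusted p = 8.98e-05 in limma) was lower than that of every other member, at percentile 1.4 of all genes tested.

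Rela (Entrez gene 19697, chromosome 19, 5637490 to 5648130, plus strand) encodes RelA, the p65 subunit of the most common dimer. It was at 34.7 and 38.6 FPKM in CNS and at 140.0 and 165 FPKM in dLN, or -2.02 as log2 ratio (SE 0.12, adjusted p = 0.000166 in limma). Rel (Entrez gene 19696, chromosome 11, 23741729 to 23770970, minus strand) encodes c-Rel, the lymphoid subunit that T cells need for full Il2 transcription. It was at 10.4 and 14.9 FPKM in CNS and at 52.2 and 61.7 FPKM in dLN, with a log2 ratio of -2.10 (SE 0.19, adjusted p = 0.000551 in limma). These genes fell by nearly the same amount, and neither showed an overlap of the tissues.

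The subunits of the alternative branch fell as well. Nfkb2 (Entrez gene 18034, chromosome 19, 46304737 to 46312090, plus strand) encodes p100, which is both the precursor of p52 and an inhibitor of RelB. It was at 34.0 and 47.0 FPKM in CNS and at 143 and 155 FPKM in dLN, or -1.87 as log2 ratio (SE 0.17, adjusted p = 0.000533 in limma). Exons of Psd and of a noncoding RNA gene without a listed value lie opposite those of Nfkb2. Psd was at 1.74 FPKM or less in every library. Relb (Entrez gene 19698, chromosome 7, 19606222 to 19629438, minus strand) encodes RelB, the partner of p52. It was at 24.4 and 30.9 FPKM in CNS and at 56.9 and 62.4 FPKM in dLN, with a log2 ratio of -1.09 (SE 0.14, adjusted p = 0.00158 in limma). Its difference was the least of the 5 subunits, and its 95% confidence interval (-1.45 to -0.73) did not reach those of Rela (-2.33 to -1.72), Rel (-2.60 to -1.60) or Nfkb1 (-3.41 to -2.80) but touched that of Nfkb2 (-2.31 to -1.43). Summed over the 5 subunits, the level was 170 and 210 FPKM in CNS and 989 and 1108 FPKM in dLN, which is 5.51-fold lower in CNS.

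Of the classical IκB genes, whose products hold the dimers in the cytoplasm, only Nfkbia was higher in CNS. Nfkbia (Entrez gene 18035, chromosome 12, 55489409 to 55492647, minus strand) encodes IκBα, the fast feedback inhibitor. It was at 363 and 500 FPKM in CNS and at 197 and 206 FPKM in dLN. Both CNS libraries lay above both dLN libraries, and the log2 ratio was 1.08 (SE 0.16, adjusted p = 0.00308 in limma). Nfkbib (Entrez gene 18036, chromosome 7, 28758251 to 28766524, minus strand) encodes IκBβ, which shares the ankyrin repeats of IκBα. It moved the other way, at 20.2 and 28.1 FPKM in CNS and 97.7 and 108 FPKM in dLN (log2 ratio -2.06, SE 0.17, adjusted p = 0.000429 in limma). Exons of Nfkbib overlap those of Sirt2 on the opposite strand, and the sources used here do not state that counting used strand. Sirt2 was at 69.3 and 71.4 FPKM in CNS and 56.0 and 55.8 FPKM in dLN. Exons of Ccer2, which has no listed value, also lie opposite those of Nfkbib. The part of opposite-strand reads in the level of Nfkbib was not tested.

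Nfkbie (Entrez gene 18037, chromosome 17, 45555716 to 45563168, plus strand) encodes IκBε and differed least. It was at 16.96 and 20.8 FPKM in CNS and at 23.5 and 26.5 FPKM in dLN, a log2 ratio of -0.39 (95% confidence interval -0.74 to -0.04, limma adjusted p = 0.0458). This call was lost in 6 of 12 alternatives. Leaving out CNS replicate 1 gave -0.25 (limma adjusted p = 0.165), leaving out dLN replicate 1 gave -0.47 (limma adjusted p = 0.0796) and leaving out dLN replicate 2 gave -0.31 (limma adjusted p = 0.191). For the other 9 members the call held in each of the 12 alternatives.

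The atypical IκB genes, whose products act in the nucleus on promoter-bound dimers, moved in opposite directions. Nfkbid (Entrez gene 243910, chromosome 7, 30423304 to 30428746, plus strand) encodes IκBNS, which binds p50. It was at 56.0 and 81.2 FPKM in CNS and at 334 and 434 FPKM in dLN, or -2.48 as log2 ratio (SE 0.22, adjusted p = 0.000517 in limma), second only to Nfkb1 among the members. Nfkbiz (Entrez gene 80859, chromosome 16, 55811377 to 55838641, minus strand) encodes IκBζ, which is needed to induce a set of secondary response genes and is known from Th17 cell development. It was at 77.8 and 106 FPKM in CNS and at 36.8 and 46.6 FPKM in dLN, with a log2 ratio of 1.11 (SE 0.19, adjusted p = 0.00483 in limma). Neither gene showed an overlap of the tissues.

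The order of the levels, which FPKM allows because it is per length, differed between the tissues. In CNS, Nfkbia led at 431 ± 96.6 FPKM (SD, n = 2), followed by Nfkbiz, Nfkb1, Nfkbid, Nfkb2, Rela, Relb, Nfkbib, Nfkbie and Rel. Within this order Nfkbiz and Nfkb1, Nfkbiz and Nfkbid, Nfkb1 and Nfkbid, Nfkb2 and Rela, Relb and Nfkbib, and Nfkbib and Nfkbie overlapped between their libraries. In dLN, Nfkb1 led at 631 ± 47.7 FPKM (SD, n = 2), followed by Nfkbid, Nfkbia, Rela, Nfkb2, Nfkbib, Relb, Rel, Nfkbiz and Nfkbie, with overlap only between Rela and Nfkb2 and between Relb and Rel. Nfkbie thus stood at 18.9 ± 2.74 FPKM (SD, n = 2) and 25.0 ± 2.11 FPKM (SD, n = 2), near the low end in both tissues.

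Replicates of a tissue were not equal for these genes. In CNS, all 10 members were higher in replicate 2 than in replicate 1, by 1.11-fold for Rela to 1.45-fold for Nfkbid, where 54.3% of all genes tested were higher. In dLN, 10 of 10 were also higher in replicate 2, by 1.05-fold to 1.30-fold, where 37.3% of all genes were. CNS replicate 2 was the library with the high myeloid and class II level given above, whose part in the higher member levels was not tested, while both dLN libraries were below 5 FPKM in summed myeloid markers. Without CNS replicate 2 the log2 ratio was 0.85 for Nfkbia and 0.89 for Nfkbiz, and 2 members remained called higher and 8 lower.

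Ratios between members were then taken within each library, where the scaling of the library cancels. The RNA of the 5 inhibitor genes exceeded that of the 5 subunit genes in CNS and not in dLN. Nfkb1 and Nfkb2 count as subunits here, although p105 and p100 also inhibit. Nfkbid and Nfkbiz count as inhibitors, although their products act in the nucleus and that of Nfkbiz is needed to induce some genes. The ratio is therefore not one of inhibition to activation, and it was not computed without these nuclear genes. In CNS the excess rested largely on Nfkbia, at 68.0% and 67.9% of inhibitor RNA. The summed FPKM of the 5 inhibitors over that of the 5 subunits was 3.15 and 3.50 in CNS and 0.696 and 0.742 in dLN, a 4.62-fold difference of the ratio (log2 difference 2.21). The tissues did not overlap. With 2 libraries in each tissue the smallest two-sided p of the exact permutation test is 0.333, which was the value here. The summed inhibitor level itself was 534 and 736 FPKM in CNS and 689 and 822 FPKM in dLN, which overlapped. Without Nfkbia among the inhibitors the log2 difference was 1.02. Without Nfkb1 among the subunits, an alternative chosen after seeing the data, it was 1.58.

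**Figure D2:**
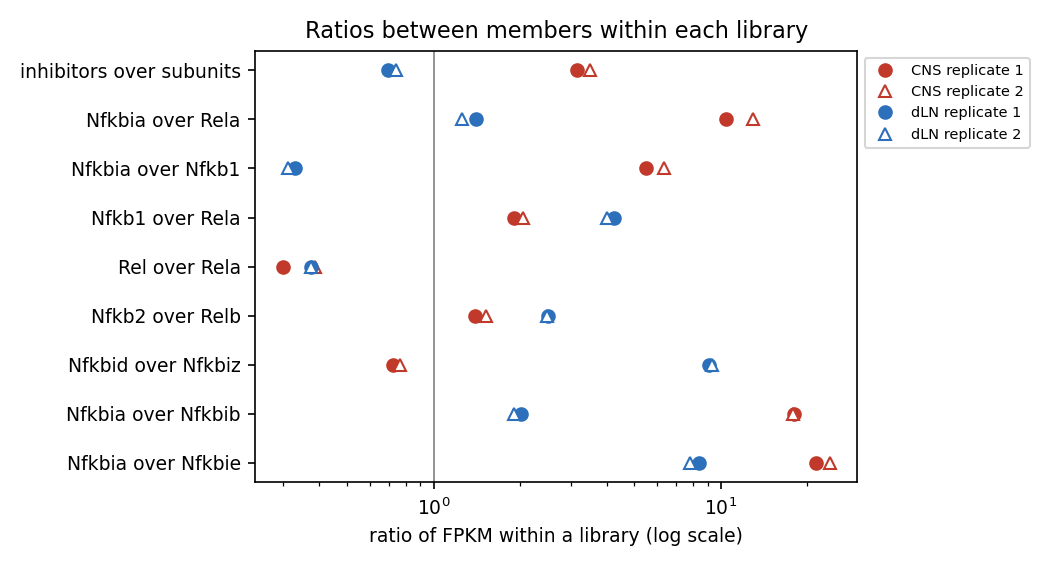
Ratios of FPKM between members within each library (log axis), with circles for replicate 1 and triangles for replicate 2. The tissues separate in every ratio except Rel over Rela, and Nfkbid over Nfkbiz changes from about 9 in dLN to below 1 in CNS.

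Among single pairs, Nfkbia over Rela, the inhibitor and the subunit of the best known complex, was 10.5 and 12.9 in CNS and 1.404 and 1.25 in dLN. Nfkbia over Nfkb1 was 5.48 and 6.32 in CNS and 0.329 and 0.311 in dLN, so that the rank of these genes was exchanged. The nuclear inhibitors changed places as well, with Nfkbid over Nfkbiz at 0.720 and 0.765 in CNS and at 9.07 and 9.33 in dLN. Within the alternative branch, Nfkb2 over Relb was 1.39 and 1.52 in CNS and 2.51 and 2.49 in dLN. Rel over Rela was 0.299 and 0.386 in CNS and 0.373 and 0.374 in dLN, and here the tissues overlapped (exact permutation p = 1.0, two-sided). None of these pairs could pass a threshold of 0.05 in this design.

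**Figure D3:**
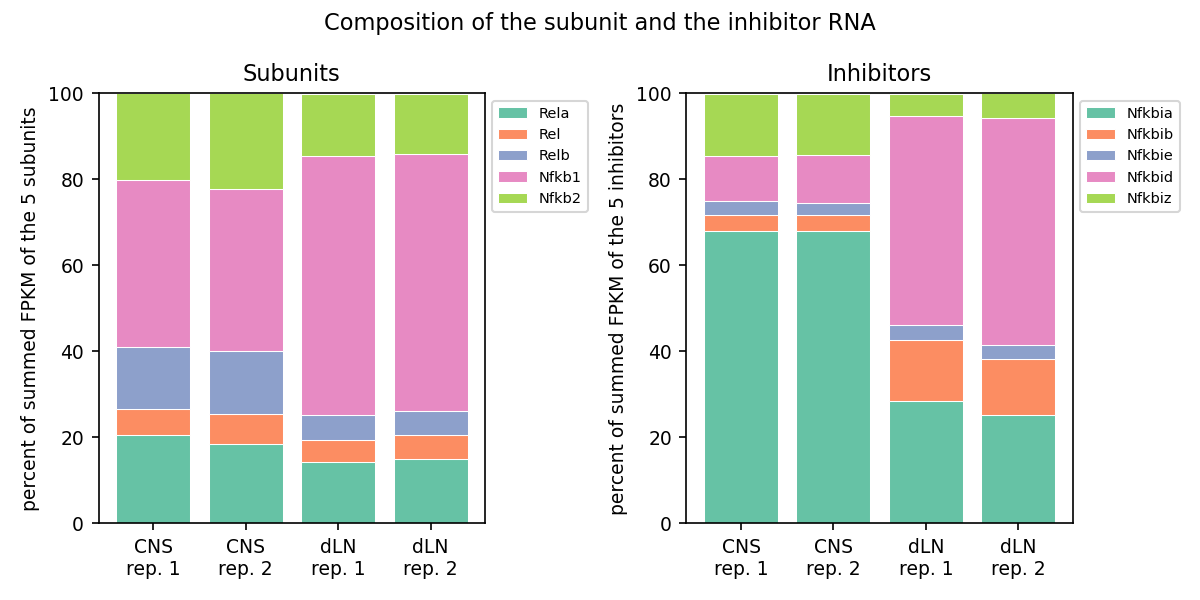
Share of each gene in the summed FPKM of the 5 subunits (left) and of the 5 inhibitors (right), in percent, with a stacked bar for each library. Nfkb1 takes about 60% of subunit RNA in dLN and below 40% in CNS, and Nfkbia takes 68% of inhibitor RNA in CNS.

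Nfkb1 made up 39.0% and 37.5% of subunit RNA in CNS and 60.4% and 59.9% in dLN. The share of Relb was 14.4% and 14.7% in CNS against 5.75% and 5.63% in dLN, a larger share in CNS in spite of its lower level. Rel kept a small share, at 6.10% and 7.09% in CNS and 5.28% and 5.57% in dLN. Of the inhibitor RNA, Nfkbia made up 68.0% and 67.9% in CNS and 28.5% and 25.1% in dLN, while Nfkbid made up 10.5% and 11.0% in CNS and 48.5% and 52.9% in dLN. The replicates of a tissue lay within 5 percentage points of each other for every gene.

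Relb, Nfkb2 and Nfkbiz have several RefSeq transcripts, whose FPKM rest on the authors' division of shared reads and were not tested. The Nfkb2 transcript that starts at 46304737, whose window is printed above, held 80.0% and 86.7% of the gene's FPKM in CNS and 69.1% and 75.9% in dLN. It was 3.18-fold lower in CNS, whereas the transcript starting at 46305695 was 7.70-fold lower (4.08 and 4.08 FPKM against 34.2 and 28.7 FPKM). For Nfkbiz, the transcript that starts at 55822138 held 90.9% and 93.1% of the FPKM in CNS and 78.5% and 88.9% in dLN. The rise of Nfkbiz lay in this transcript, with means of 84.7 FPKM for CNS against 35.1 FPKM for dLN, while the transcript of 3507 bases that starts at 55838641 was at 6.51 and 6.30 FPKM in CNS and 7.93 and 4.91 FPKM in dLN. Both Relb transcripts start at the same base and differ by 6 bases in length, and the shorter held 70.8% to 85.2% of the FPKM in all 4 libraries.

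The other genes of the pathway were taken from 7 lists with 80 genes, of which 79 were tested. In CNS 29 were higher and 28 lower, so that 57 of 79 were called against the 74.9% of all genes given above, and their median log2 ratio was -0.08. The counts of single lists below stand beside 37.8% of all genes higher and 37.2% lower, and lists this short say little. Among other IκB proteins and partners of the subunits, 4 of 6 were higher, none was lower and the median was 0.72. Bcl3, a nuclear IκB that binds p50 and p52 homodimers, was at 22.4 and 32.3 FPKM in CNS and at 10.6 and 7.27 FPKM in dLN (log2 ratio 1.51, limma adjusted p = 0.00367). Of the 3 nuclear IκB genes named here, Bcl3 and Nfkbiz were higher in CNS and Nfkbid was lower. Pdlim2, whose product promotes the degradation of nuclear RelA, had a log2 ratio of 1.67 (limma adjusted p = 0.000824), and Commd1, another limiter of RelA, one of 0.82 (limma adjusted p = 0.00624, 0.0564 without CNS replicate 1).

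The IKK subunits themselves differed little. Chuk (IKKα) was at 17.4 and 17.2 FPKM in CNS and 23.6 and 22.8 FPKM in dLN (log2 ratio -0.40), Ikbkb (IKKβ) at 27.4 and 26.7 against 18.5 and 20.9 FPKM (0.44) and Ikbkg (NEMO) at 7.46 and 7.18 against 5.34 and 4.94 FPKM (0.44). All 3 passed the test (limma adjusted p = 0.00868 to 0.0109), but Chuk lost its call in 2, Ikbkb in 3 and Ikbkg in 4 of 12 alternatives. Without dLN replicate 1 the log2 ratio was -0.37 for Chuk (limma adjusted p = 0.0581) and 0.36 for Ikbkb (0.0636), without CNS replicate 1 it was 0.42 for Ikbkb (0.0637) and 0.41 for Ikbkg (0.0634), and without dLN replicate 2 it was 0.39 for Ikbkg (0.068). Map3k14, the NF-κB-inducing kinase, had a log2 ratio of -0.38 (limma adjusted p = 0.0395) and lost its call in 5 of 12 alternatives. These were the fits without CNS replicate 1 (-0.24, limma adjusted p = 0.0881), without dLN replicate 1 (-0.38, 0.127) and without dLN replicate 2 (-0.37, 0.134), and those without a filter and with the same upper quartile. Over all 11 kinases and their partners, 4 were higher and 5 lower. The larger differences were those of Ikbke (log2 ratio 1.52), an IKK-related kinase, of Map3k8 (-1.24), a kinase held by p105, and of Map3k7 (-1.03), which phosphorylates IKK.

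**Figure D4:**
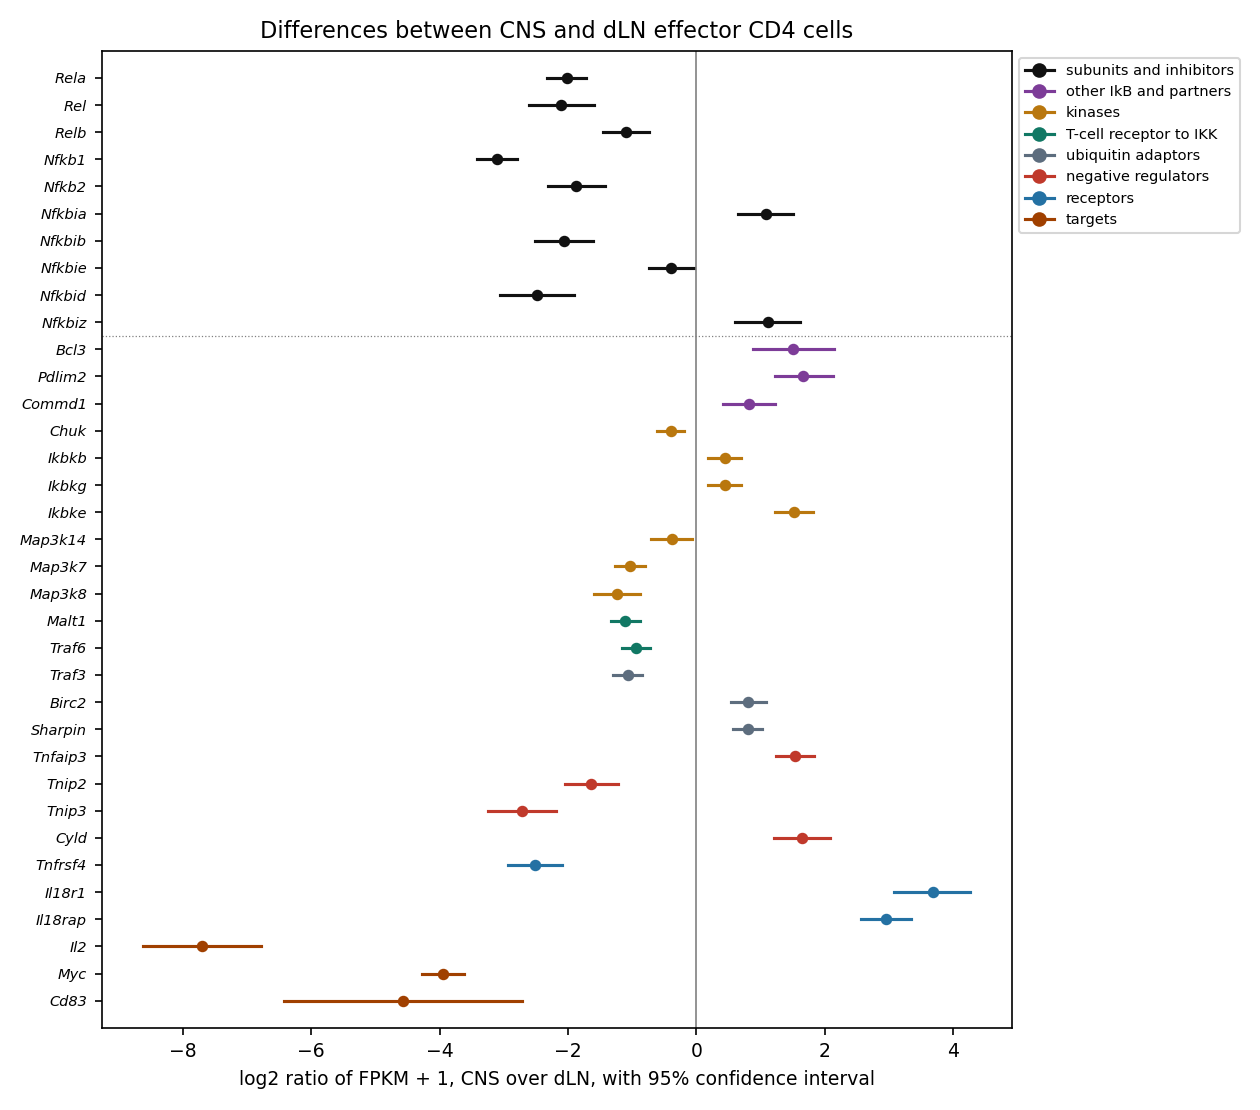
Log2 ratio of FPKM + 1 between CNS and dLN (point) with its 95% confidence interval (line) for the 10 members (black) and 25 named genes of the 7 pathway lists (colours). The interval of Nfkbie ends next to 0, and the ratios of the pathway genes run from -7.70 for Il2 to 3.68 for Il18r1.

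Of the 6 genes that link the T-cell receptor to IKK, 2 were higher and 2 lower. Malt1, a protease that acts between the receptor and IKK, was lower, with a log2 ratio of -1.11 (limma adjusted p = 0.000347), and so was Traf6 (-0.94), the ubiquitin ligase it recruits. Of 12 ubiquitin adaptors, 5 were higher and 5 lower. Traf3, which keeps NF-κB-inducing kinase low, had a log2 ratio of -1.07, and Birc2, which acts with it, one of 0.81. Sharpin, of the linear ubiquitin chain complex, had a log2 ratio of 0.80.

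Among 11 negative regulators, 4 were higher and 2 lower. Tnfaip3 encodes A20, a deubiquitinase induced by NF-κB that acts upstream of IKK. Like Nfkbia it was higher in CNS, at 393 and 466 FPKM against 139 and 154 FPKM in dLN (log2 ratio 1.54, limma adjusted p = 0.000309). Cyld, another deubiquitinase, had a log2 ratio of 1.65 (limma adjusted p = 0.000789). The A20-binding proteins Tnip2 and Tnip3 were lower, with log2 ratios of -1.64 and -2.72. Tnip3 was at only 0.714 and 1.38 FPKM in CNS, and its log2 ratio was -3.50 with a pseudocount of 0.1. Of 13 receptor genes tested, 7 were higher and 4 lower. The genes of both IL-18 receptor chains, Il18r1 (log2 ratio 3.68) and Il18rap (2.96), were higher, and Tnfrsf4 (-2.51), which encodes the costimulatory receptor OX40, was lower.

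Of 20 known NF-κB targets, 3 were higher, 10 lower and 7 did not pass the test, with a median log2 ratio of -0.59. Targets counted among the members or in another list are left out, such as Nfkbia and Tnfaip3, both higher in CNS. The counts and the median depend on which targets were placed in this list. Over all genes tested, 37.8% were higher and 37.2% lower, with a median of 0.05. Il2 was at 18.2 and 38.8 FPKM in CNS and at 5363 and 6176 FPKM in dLN (log2 ratio -7.70, limma adjusted p = 0.000101). Myc, a driver of growth, had a log2 ratio of -3.95 (limma adjusted p = 8.12e-05). Cd83, a surface molecule of activated lymphocytes and dendritic cells, had one of -4.57 (limma adjusted p = 0.00332), and stood at 1.01 and 8.10 FPKM in CNS, the higher value in the library with the high myeloid level. Its log2 ratio was -3.48 without CNS replicate 1 and -5.66 without CNS replicate 2, and lower in CNS in both. These genes have other inducers too, so the list does not measure NF-κB activity alone. The part of stimulation, on which the sources differ, was not tested. The 3 targets that were higher were Ltb, Icam1 and Irf1, outside the rule for naming genes, with log2 ratios of 1.63, 1.25 and 1.45.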

How the data were processed

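RNA of CD44+CD4 cells was sequenced in 2 libraries each of CNS and dLN. After trimming and mapping of the reads, the authors deposited FPKM of 33819 RefSeq transcripts (mm10) in a table per tissue. The aligner and the program that computed FPKM are not given in the sources used here. The CNS header holds both library names in a single cell, and its columns were read in that order. FPKM is scaled within each library, which does not remove a difference between the tables. All CNS values came from the CNS table and all dLN values from the dLN table. Any difference in how these tables were made could therefore not be told apart from tissue. FPKM was summed by symbol, leaving out 565 transcripts without a symbol, and tested with limma 3.58.1 (eBayes with trend, tissue as the only term) in R 4.3.3 on log2(FPKM + 1), a scale that understates the change of low genes. Calls had a Benjamini-Hochberg adjusted p under 0.05 over 10634 genes. Depth came from low FPKM values, 91.0% to 93.3% of which were within 0.05 of whole fragments. Counting error is small at this depth, and fragments are not independent molecules. Transcript starts were converted to count from 1, strand came from GENCODE M21 and promoters from RefSeq. Python 3.11.15 with pandas 2.3.3 and matplotlib 3.10.9 was used otherwise. The scripts were tested on simulated data.

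The members and gene lists were chosen with earlier results of these data known. Genes named beside the members were the 3 largest called changes of each list whose mean FPKM reached 10 in either tissue, and Bcl3, Chuk, Ikbkb, Ikbkg, Map3k14 and Tnfaip3. Alternatives covered the pseudocount, scaling, transcript choice, filters, variance model, minimum fold, a replicate block and each library left out. Otulin and Adgre1 were matched through Entrez gene numbers. A gene that this rule names is not reported here.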

Additional observations from a re-analysis of the deposited data

How the results depend on the processing

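Over 12 alternative fits, 114 of 120 log2 ratios of the members kept their direction and call, and the 6 exceptions were those of Nfkbie. No member changed direction. The alternatives are not independent checks. The replicate block cannot change a log2 ratio, and the highest transcript equals the sum for members with 1 transcript. Of the named pathway genes, 297 of 312 ratios kept both. With a 2-fold difference required as well, 4168 genes in place of 7968 and 32 of the pathway genes in place of 57 were called, and 7 members lower and 2 higher. A second criterion can only lower such counts. The same sum of FPKM per library shifted the median log2 ratio of all genes by -0.18 and the same upper quartile by 0.11, and Nfkbie lost its call with the latter (-0.26, limma adjusted p = 0.123). Leaving out each library gave 6676 to 7429 genes called, 47 to 56 pathway genes, 7 to 8 members lower and 2 higher, a log2 difference of the inhibitor to subunit ratio of 2.13 to 2.28, and a share of Nfkb1 lower in CNS by 21.2 to 22.6 percentage points.

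Each tissue has a library 1 and a library 2 in the labels. The difference of library 2 from library 1 had a correlation across genes of 0.0933 between CNS and dLN. Genes are not independent replicates, and no source describes a pairing. Xist was at 0 and 0.0026 FPKM in CNS and at 26.6 and 22.3 FPKM in dLN. With the Y-linked transcripts given above, this means that libraries of the same number did not come from the same mice. With the replicate block, 7828 genes, 53 pathway genes, 2 members higher and 8 lower were called. As each tissue has a library 1 and a library 2, a block can change only the error. The log2 ratios and the log2 difference of 2.21 stay the same by design. A block changed no call of a member.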
